A study of Saccharomyces cerevisiae with 12 samples.

Results

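Transcript levels of 10 genes for RNA-binding regulators of budding yeast, Saccharomyces cerevisiae, were followed through an ATP treatment in a pair of strains. The genes are VTS1, the PUF-family genes JSN1, PUF2, PUF3, PUF4 and MPT5, the paralogues WHI3 and WHI4, and PUB1 and SSD1. They are 10 of the 7127 features in the count table, they were taken by their systematic identifiers, and all 10 passed the filter on low counts that left 6157 genes. Of these, VTS1 had been singled out earlier by its measured response to ATP in the NTT1 strain, and the other 9 encode proteins of related function. VTS1 is therefore described, without a test, in every comparison that uses an NTT1 library. It is tested for ATP in wild type, a contrast that holds no NTT1 library, although its spread is estimated from all 12 libraries.

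The study asked how yeast responds when it can import ATP. NTT1 is a nucleotide transporter of the microsporidian parasite Encephalitozoon cuniculi, and the strain called NTT1 here has a PH-NTT1 construct integrated in its genome, in the BY29034 background with a QUEEN reporter. The 4 groups were NTT1 cells given 5 mM extracellular ATP for 1 h, NTT1 cells given none, wild-type cells with an empty vector given the same ATP, and wild-type cells given none, with 3 biological replicates each. All cultures were in mid-log growth in a complete synthetic medium, and total RNA was sequenced. The reporter is labelled for the NTT1 strain and not for wild type, so transporter and reporter cannot be told apart in a comparison of strains. The wild-type libraries carry source names that differ from one another, BY29034 to BY29039, and what these names stand for is not given. Since the NTT1 transcript was not analysed here, strains are taken from the labels alone.

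The 12 libraries held 14845855 to 20714804 counts. Levels are given as CPM, the count of a gene scaled to a common library size, after TMM normalisation. CPM are shares of a library, so a fall in 1 gene cannot be told apart from a rise in the rest of the RNA, nor fewer cells of a kind from less RNA per cell. Untreated wild type was the least uniform group. Pearson's r of log2 CPM between its replicates, across genes, was 0.977 to 0.989, against 0.992 to 0.996 within the other 3 groups. Its replicate 3 stood apart for several of the genes described here, and results that turn on that library are given with and without it.

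RNA-binding proteins of this kind act after transcription: they attach to short sequences, mostly in the 3′ untranslated regions of mRNAs, and change how long those mRNAs last, where they go and how well they are translated. Vts1 is the yeast member of the Smaug family and recognises a small RNA hairpin through its SAM domain, after which the CCR4-NOT complex shortens the poly(A) tail. PUF proteins read a run of bases that starts with UGUA, and each member prefers a motif of its own length. Whi3 binds UGCAU in the mRNA of the G1 cyclin Cln3 and holds back the start of the cell cycle.

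Stretches around the binding motifs show what these proteins read and which of their own genes carry such letters. The 200 bases after the stop codon of 6002 genes were searched on the gene strand, in assembly R64. The Puf3 motif TGTANATA was present in 14.1% of all genes, the Puf4 motif TGTANANTA in 7.36%, the Mpt5 motif, TGTA and ANTA with NN between them, in 6.55% and the Whi3 motif TGCAT in 26.3%. By their letters, the 3 PUF motifs cannot match at the same start position. In the stretches printed here, capitals mark the motif, and each is written 5′ to 3′ on the gene strand. A match is a description of the letters and not evidence of binding. The first set holds members that carry a motif of one of the 10 proteins.
VTS1, Whi3 motif, chrXV:1012787-1012803, plus strand: tgacgtTGCATaaagat
VTS1, Whi3 motif, chrXV:1012815-1012831, plus strand: ttacttTGCATatacca
WHI3, Whi3 motif, chrXIV:267567-267583, minus strand: tttcctTGCATgtatca
WHI3, Whi3 motif, chrXIV:267549-267565, minus strand: attataTGCATtgcttt
JSN1, Whi3 motif, chrX:594987-595003, minus strand: cataccTGCATccattc
SSD1, Whi3 motif, chrIV:1045511-1045527, minus strand: aacaacTGCATgaattt
PUF4, Puf4 motif, chrVII:468858-468878, plus strand: atctttTGTACAATActaaaa
MPT5, Mpt5 motif, chrVII:170600-170621, plus strand: tcttacTGTACAAATAttttac
PUF4 and MPT5 each hold the motif of the protein they encode, and WHI3 holds TGCAT at 2 places. The other 4 members, PUF2, PUF3, WHI4 and PUB1, held none of the 4 motifs in this window.

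The second set shows mRNAs that are well known as targets of these proteins, whose levels are given further on. COX17 encodes a copper chaperone for cytochrome oxidase and is the classic Puf3 target. HO, the mating-type switching endonuclease, is repressed by Mpt5 and Puf4. CLN3 is the Whi3 target.
COX17, Puf3 motif, chrXII:131160-131179, minus strand: atttctTGTATATAtaagaa
COX17, Puf3 motif, chrXII:131115-131134, minus strand: actaccTGTAAATAtgtgcg
HO, Puf4 motif, chrIV:46252-46270, minus strand: aatgTGTATATTAgtttaa
CLN3, Whi3 motif, chrI:65751-65767, minus strand: aaaaaaTGCATttaaca
CLN3, Whi3 motif, chrI:65630-65646, minus strand: tacattTGCATagaatt
The spacing between TGTA and the closing TA is what separates the PUF motifs in these stretches: it is shortest in COX17, longer in HO and PUF4, and longest in MPT5.

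VTS1 (YOR359W, chromosome XV, 1011189 to 1012760, plus strand) had the largest ATP difference of the 10 genes in each strain. In ATP-treated NTT1 cells it had 60.7, 64.9 and 56.7 CPM, and in untreated NTT1 cells 20.4, 13.8 and 19.6 CPM. The treated libraries lay far above the untreated ones, with no overlap. The log2 fold change was 1.76 (SE 0.25), or 3.39-fold, and it is the value VTS1 was chosen for.

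Wild type gave a test of the same gene by a contrast that holds no NTT1 library. It is not fully independent of the choice. The spread came from all 12 libraries, and members were chosen with earlier results of these data known. VTS1 had 58.3, 54.3 and 54.5 CPM in ATP-treated wild type and 11.9, 17.8 and 28.6 CPM in untreated wild type. Again the groups did not overlap, and the highest untreated value was that of replicate 3. VTS1 rose 2.87-fold (log2 1.52, SE 0.24), with an adjusted p of 0.00893 by edgeR's quasi-likelihood test over all 6157 genes. The call held when any of the 12 libraries was left out (1.26 to 1.91, adjusted p at most 0.0415). Without untreated replicate 3 the value was 1.91 (adjusted p = 2.58e-05). When only the 6 wild-type libraries were fitted, the size was 1.52 and the adjusted p was 0.0921, so the call rests on the estimate of spread that all 12 libraries share.

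The strains differed little in VTS1. With ATP, its log2 difference of NTT1 against wild type was 0.13 (SE 0.23), and without ATP it was -0.11 (SE 0.25), both with overlapping ranges. The ATP effect of NTT1 cells exceeded the wild-type one by 0.24, with a 95% interval of -0.55 to 1.03. Leaving out untreated wild-type replicate 3 turned the untreated strain difference to 0.27 and this last value to -0.15. All of these are descriptions.

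**Figure D1:**
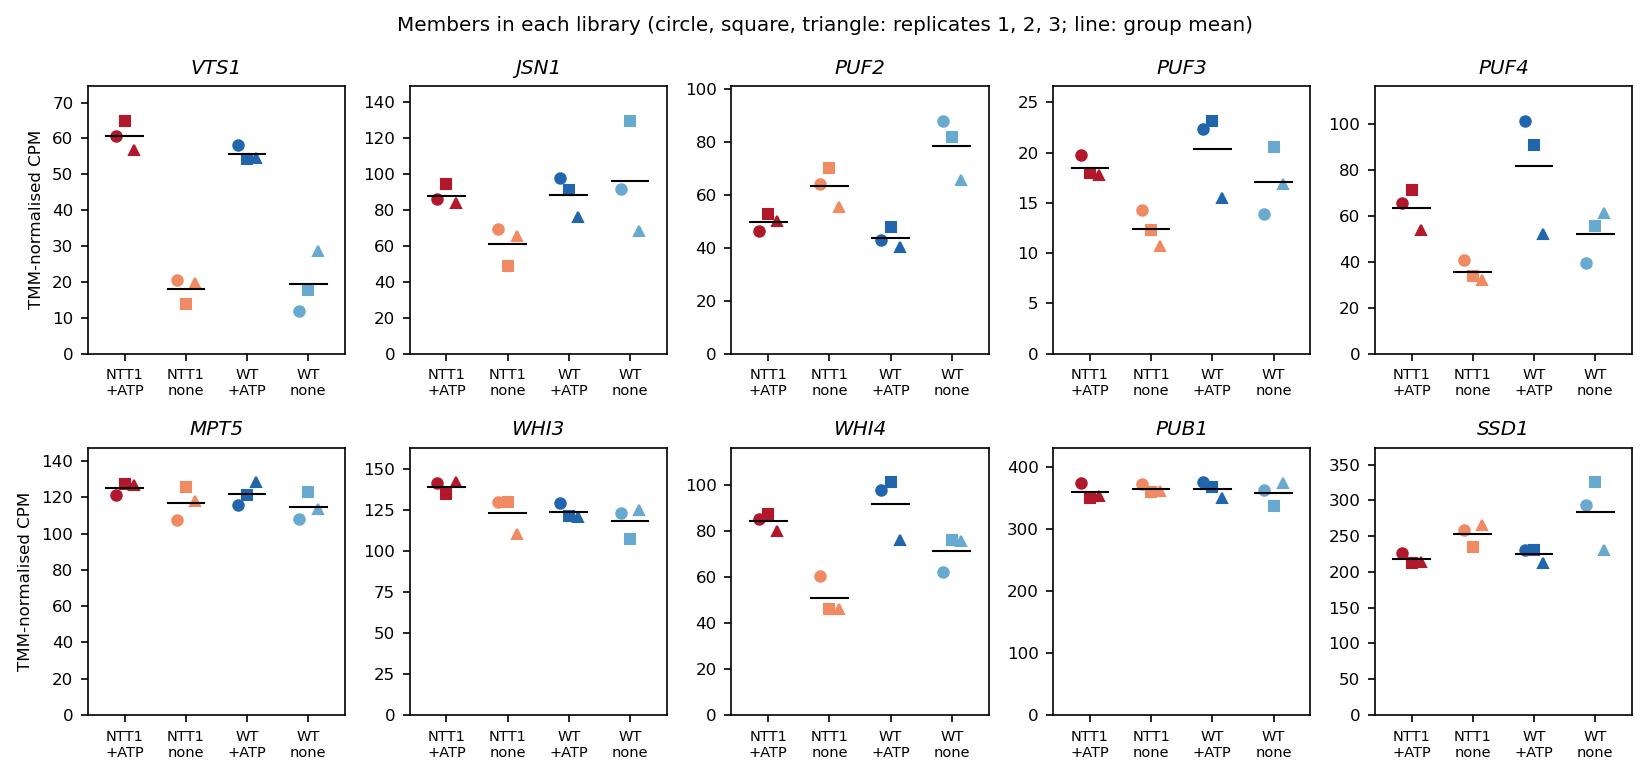
TMM-normalised CPM (vertical axis, from 0) of the 10 genes in each of the 12 libraries, with groups along the horizontal axis, marker shapes for replicates and a line for the group mean. VTS1 lies between 54.3 and 64.9 CPM in all 6 ATP-treated libraries and between 11.9 and 28.6 CPM in all 6 untreated ones, whereas PUB1 and MPT5 are level across groups.

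The PUF family did not move as a block. PUF2 was lower with ATP, PUF4 and PUF3 had higher treated means, and MPT5 was nearly level. PUF2 (YPR042C, chromosome XVI, 650435 to 653662, minus strand) is known, with Jsn1, for binding mRNAs of membrane-associated proteins. It had 43.0, 47.9 and 40.3 CPM in ATP-treated wild type, against 88.0, 81.9 and 65.5 CPM in untreated wild type. All 3 treated libraries were below all 3 untreated ones. PUF2 fell by 0.84 on the log2 scale (SE 0.12, adjusted p = 0.00632, edgeR), and the call held in 12 of 12 fits that left out a library (-0.95 to -0.75). As with VTS1, fitting wild-type libraries only gave the same size, with an adjusted p of 0.0627.

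In the NTT1 strain, PUF2 had 46.3, 52.7 and 50.0 CPM with ATP and 64.1, 70.2 and 55.4 CPM without. These groups did not overlap either. The log2 fold change was -0.35 (SE 0.12) and did not pass the threshold (adjusted p = 0.120), whereas it passed without untreated wild-type replicate 3 (adjusted p = 0.0273). That was its 1 call in 12 fits that left out a library, and 0 of the 6 that left out an NTT1 library called it. The difference between the strains' ATP effects was 0.49, with a 95% interval of 0.10 to 0.88 that is not adjusted for the number of genes and an adjusted p of 0.747. A difference between strains in the PUF2 response was therefore not established over all genes.

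PUF4 (YGL014W, chromosome VII, 466141 to 468807, plus strand) is known for binding mRNAs of ribosome assembly factors. It had 65.3, 71.1 and 53.6 CPM in ATP-treated NTT1 cells and 40.6, 33.8 and 31.9 CPM in untreated NTT1 cells, with no overlap. In wild type it had 101, 90.8 and 52.2 CPM with ATP and 39.5, 55.4 and 61.2 CPM without. Here the ranges overlapped, because treated replicate 3 lay below the untreated replicates 2 and 3. PUF4 had log2 fold changes of 0.84 (SE 0.23, adjusted p = 0.0674) in NTT1 and 0.65 (SE 0.23, adjusted p = 0.0852) in wild type, neither past the threshold. PUF4 was among the calls when only NTT1 libraries were fitted (adjusted p = 0.00386) and with DESeq2 in both strains (adjusted p = 0.00907 in NTT1 and 0.0383 in wild type). It also passed in both strains without untreated wild-type replicate 3 (adjusted p = 0.0279 in NTT1 and 0.0345 in wild type) and without treated wild-type replicate 3 (adjusted p = 0.0249 in NTT1 and 0.0447 in wild type). In each strain these were its 2 calls in 12 fits that left out a library. For ATP in NTT1, 0 of the 6 fits that left out an NTT1 library called it.

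PUF3 (YLL013C, chromosome XII, 122075 to 124714, minus strand) binds mRNAs of mitochondrial proteins and was the scarcest of the 10 transcripts. In NTT1 cells it had 19.7, 17.9 and 17.7 CPM with ATP and 14.3, 12.2 and 10.7 CPM without, which did not overlap. In wild type it had 22.4, 23.2 and 15.5 CPM with ATP and 13.9, 20.6 and 16.8 CPM without, which did. PUF3 had log2 fold changes of 0.57 (SE 0.18, adjusted p = 0.0957) in NTT1 and 0.25 (SE 0.18, adjusted p = 0.366) in wild type. PUF3 passed when only NTT1 libraries were fitted (adjusted p = 0.0153).

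JSN1 (YJR091C, chromosome X, 595061 to 598336, minus strand), also called PUF1, ranged widely between the untreated wild-type libraries. It had 85.7, 94.0 and 83.8 CPM in ATP-treated NTT1 cells and 68.9, 48.6 and 65.3 CPM in untreated ones. In wild type the values were 97.6, 90.7 and 75.8 CPM with ATP and 91.2, 129 and 68.0 CPM without, where the untreated range enclosed the treated one. With ATP, JSN1 had a log2 fold change of 0.53 in NTT1 (SE 0.20, adjusted p = 0.163) and of -0.13 in wild type (SE 0.20, adjusted p = 0.718). The wild-type value turned to 0.15 when untreated replicate 2 was left out, and the NTT1 value passed without untreated wild-type replicate 3 (adjusted p = 0.0398). The NTT1 value passed in 1 of 12 fits that left out a library, and in 0 of the 6 that left out an NTT1 library.

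MPT5 (YGL178W, also PUF5, chromosome VII, 167352 to 170571, plus strand, in 2 coding segments) promotes longevity and represses HO. It stayed within 107 to 128 CPM in all 12 libraries, and its groups overlapped in both strains. The log2 fold change with ATP was 0.10 (SE 0.07) in NTT1 and 0.09 (SE 0.07) in wild type, with 95% intervals of -0.07 to 0.27 and -0.08 to 0.26.

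WHI4 (YDL224C, chromosome IV, 54397 to 56346, minus strand), a paralogue of WHI3 with a partly shared role at the start of the cell cycle, was the 1 gene of the 9 tested that passed for ATP in NTT1. It had 85.4, 87.6 and 80.0 CPM in ATP-treated NTT1 cells, against 60.4, 46.2 and 46.0 CPM in untreated NTT1 cells. Every treated library was above every untreated one. WHI4 rose 1.66-fold (log2 0.73, SE 0.13), with an adjusted p of 0.0133 by edgeR. The call was lost without untreated NTT1 replicate 2 (adjusted p = 0.0757) and without treated NTT1 replicate 1 (adjusted p = 0.0596), and it held in the other 10 such fits and when only NTT1 libraries were fitted (adjusted p = 0.00348).

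In wild type WHI4 had 97.8, 101 and 76.0 CPM with ATP and 62.1, 76.1 and 75.9 CPM without. The lowest treated library lay level with the upper untreated ones. That gave 0.36 on the log2 scale (SE 0.13, adjusted p = 0.0932). The strain difference in the ATP effect was 0.37, with a 95% interval of -0.06 to 0.80 and an adjusted p of 0.871.

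WHI3 (YNL197C, chromosome XIV, 267608 to 269593, minus strand) moved far less than its paralogue. It had 141, 134 and 142 CPM in ATP-treated NTT1 cells, against 130.0, 129.7 and 110 CPM in untreated NTT1 cells. The ranges did not overlap, but the log2 fold change was 0.17 (SE 0.08, adjusted p = 0.240). In wild type it had 129, 121 and 121 CPM with ATP and 123, 107 and 125 CPM without, which gave 0.06 on the log2 scale (SE 0.08, adjusted p = 0.647).

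PUB1 (YNL016W, chromosome XIV, 602907 to 604268, plus strand) encodes a poly(A)+ RNA-binding protein that stabilises transcripts and enters stress granules. It was the steadiest of the 10 genes, at 336 to 375 CPM in all 12 libraries. The log2 fold change with ATP was -0.02 (SE 0.06, 95% interval -0.16 to 0.12) in NTT1 and 0.02 (SE 0.06, 95% interval -0.11 to 0.16) in wild type.

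SSD1 (YDR293C, chromosome IV, 1045640 to 1049392, minus strand) encodes a repressor of the translation of cell wall mRNAs, held in check by the kinase Cbk1. It had 227, 213 and 214 CPM in ATP-treated NTT1 cells and 258, 235 and 266 CPM in untreated ones, without overlap. In wild type it had 230.3, 231.0 and 213 CPM with ATP and 294, 325 and 231 CPM without. The untreated replicate 3 lay among the treated libraries and the other untreated replicates lay above them. SSD1 had log2 fold changes of -0.22 (SE 0.11, adjusted p = 0.266) in NTT1 and -0.33 (SE 0.11, adjusted p = 0.0652) in wild type. Without that replicate the wild-type value was -0.46, with an adjusted p of 0.000748, and the NTT1 value passed as well (adjusted p = 0.0471). In each strain this was the 1 call in 12 fits that left out a library. For ATP in NTT1, 0 of the 6 fits that left out an NTT1 library called SSD1.

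Counted together, 1 of the 9 tested members was called for ATP in NTT1 (WHI4, higher), where 4.47% of all genes were called. In wild type 2 of 10 were called (VTS1 higher, PUF2 lower), where 12.7% of all genes were. Counts this small differ from those shares by about 1 gene and say nothing about the members as a set. Ranges that did not overlap were found for 8 of 10 members with ATP in NTT1, among them VTS1, which was chosen on it, against 36.3% of all genes. In wild type they were found for 2 of 10, against 27.1% of all genes. Without VTS1, the median log2 fold change of the other 9 members was 0.17 in NTT1 and 0.06 in wild type. With VTS1 it was 0.35 in NTT1, where its value had chosen it, and 0.07 in wild type. That of all genes was -0.0029 in NTT1 and 0.0027 in wild type.

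The counts moved with untreated wild-type replicate 3. Without it, 5 of 9 members were called for ATP in NTT1 (WHI4, PUF4, PUF2, JSN1 and SSD1), where 16.7% of all genes were. In wild type 4 of 10 were called (VTS1, PUF2, PUF4 and SSD1), where 33.7% of all genes were. Untreated wild-type replicate 3 is not part of the NTT1 comparison and enters it only through the fit shared by all 12 libraries. When an NTT1 library was left out instead, WHI4 was called there in 4 of 6 fits, and PUF4, PUF2, JSN1 and SSD1 in 0 of 6. A fit of only the NTT1 libraries called 5 of 9 members, WHI4, PUF4 and PUF3 among them, where 15.6% of all genes were called.

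**Figure D2:**
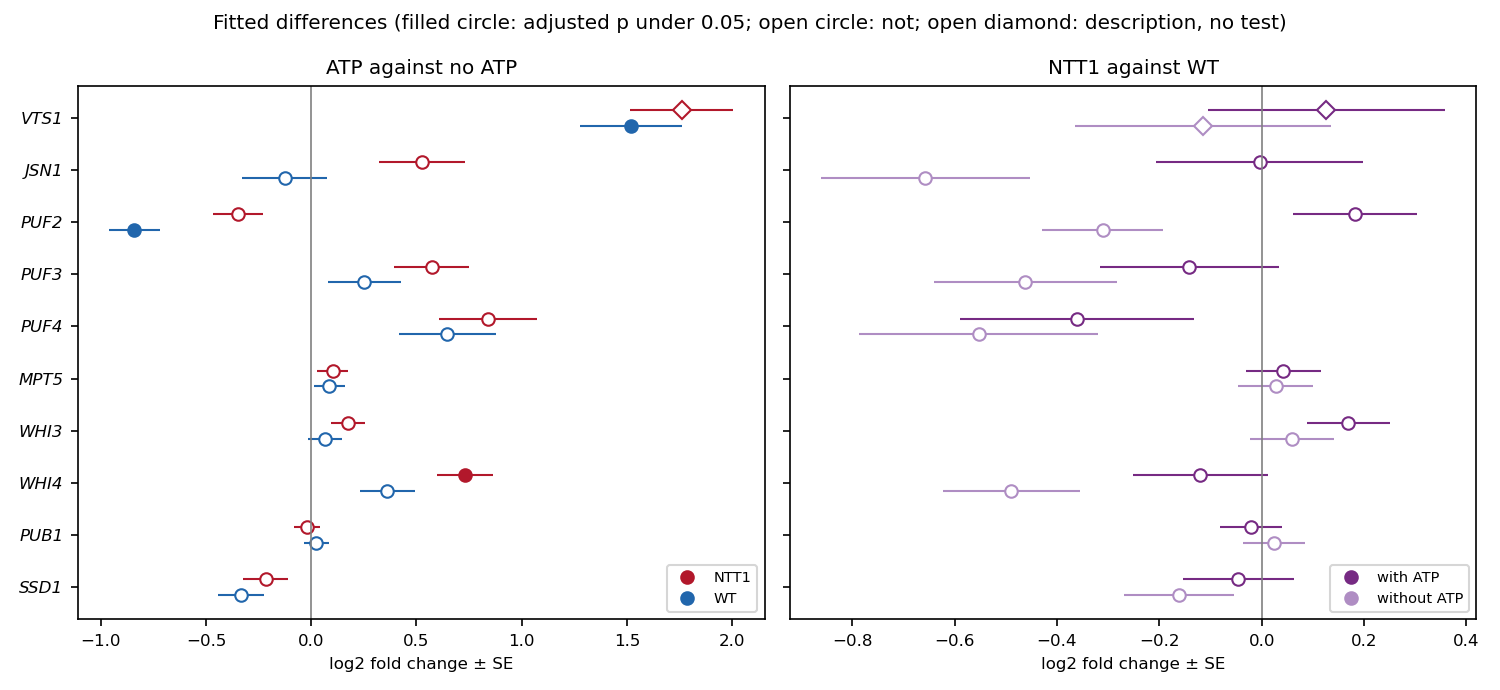
Fitted log2 fold change (horizontal axis) with its SE for the 10 genes, for ATP against none in each strain (left panel) and for NTT1 against wild type with and without ATP (right panel). Filled circles passed an adjusted p of 0.05, open circles did not, and open diamonds are VTS1 values given without a test. VTS1 in wild type (1.52), PUF2 in wild type (-0.84) and WHI4 in NTT1 (0.73) are the filled points.

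NTT1 cells were next set against wild-type cells at equal treatment. With ATP, 0 of the 9 tested members passed with edgeR, 0 had an unadjusted p under 0.05, and DESeq2 called 0. Of all genes, edgeR called 0.065% in that comparison and DESeq2 0.195%. The ranges of WHI3 did not overlap there, at 134 to 142 CPM in NTT1 and 121 to 129 CPM in wild type, as was so for 16.2% of all genes. Its log2 difference was 0.17 (SE 0.08, adjusted p = 0.999).

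Without ATP, 0 of 9 members passed with edgeR and 0 with DESeq2, where edgeR called 0.0487% of all genes and DESeq2 0.666%. With edgeR, 5 members had an unadjusted p under 0.05, as did 9.7% of all genes. These 5 were JSN1 (-0.66), PUF4 (-0.55), WHI4 (-0.49), PUF3 (-0.46) and PUF2 (-0.31), given as log2 differences of NTT1 against wild type. WHI4 was the 1 member whose ranges did not overlap, at 46.0 to 60.4 CPM in NTT1 and 62.1 to 76.1 CPM in wild type, as was so for 9.4% of all genes. Without untreated wild-type replicate 3, JSN1 (adjusted p = 0.0116), PUF2 (adjusted p = 0.0252) and SSD1 (adjusted p = 0.0323) passed, and with them 602 genes in all, or 9.74%. The strain difference in the ATP effect was called for 0 of 9 members with edgeR and 0 with DESeq2, and for 0% of all genes with edgeR. Without untreated wild-type replicate 3, edgeR called it for 106 genes, with 0 members among them. An unadjusted p under 0.05 was found for JSN1 (0.65) and PUF2 (0.49), and for 5.93% of all genes.

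Levels of different genes were compared as CPM per kb of coding sequence. PUB1 was the most abundant transcript in all 4 groups, at 263 ± 9.56 in ATP-treated NTT1, 267 ± 4.83 in untreated NTT1, 267 ± 9.33 in ATP-treated wild type and 263 ± 14.3 in untreated wild type (SD, n = 3). Averaged over the 12 libraries, PUB1 lay at the 88.7th percentile of 5775 protein-coding genes. WHI3 and SSD1 followed at 63.5 and 65.2 CPM per kb, and MPT5 at 46.4 lay beside the median gene at 46.0. The other PUF genes were scarcer, with JSN1 at 25.4, PUF4 at 21.8, PUF2 at 18.2 and PUF3 at 6.47 CPM per kb, the last at the 6.35th percentile.

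VTS1 changed its place in that order with ATP. In treated cells it ranked sixth among the 10, at 38.7 ± 2.62 CPM per kb in NTT1 and 35.4 ± 1.41 in wild type (SD, n = 3). In untreated cells it ranked ninth, above PUF3 alone, at 11.4 ± 2.30 CPM per kb in NTT1 and 12.4 ± 5.38 in wild type. Neighbours in the order often could not be separated. VTS1 overlapped WHI4 in treated NTT1 cells, PUF4 in untreated NTT1 cells and in treated wild type, and both PUF4 and PUF3 in untreated wild type. PUB1, at the top, was separated from the next gene in all 4 groups.

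**Figure D3:**
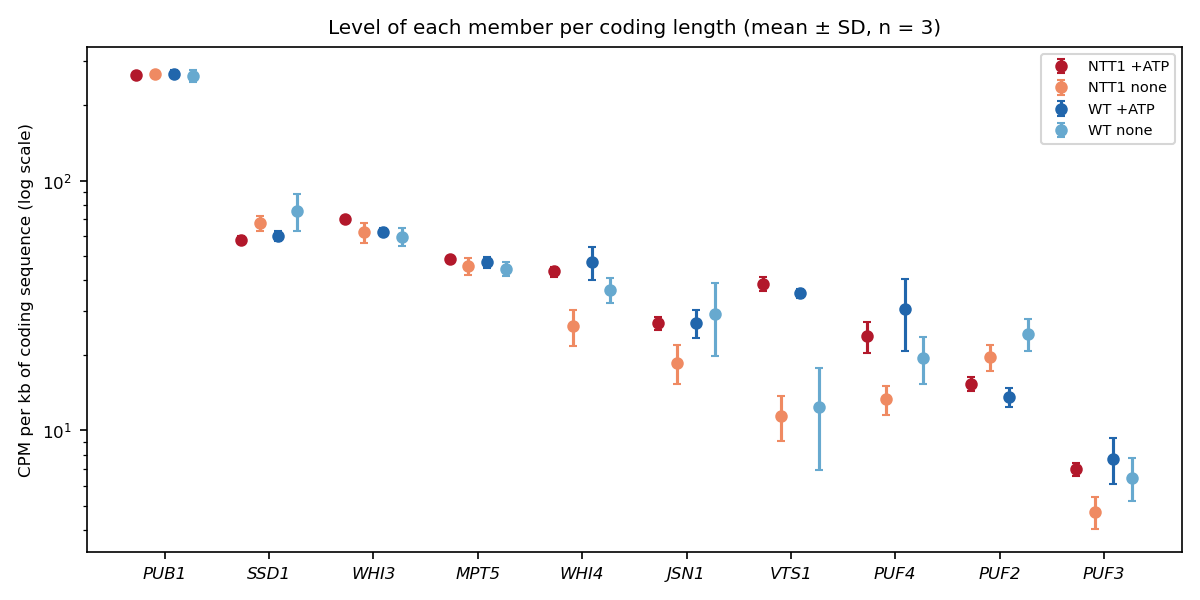
Mean CPM per kb of coding sequence (vertical axis, log scale) of each gene in the 4 groups, with bars for the SD of 3 replicates. PUB1 is highest at 263 to 267 and PUF3 lowest at 4.70 to 7.70, while VTS1 lies at 35.4 to 38.7 in ATP-treated groups and 11.4 to 12.4 in untreated groups.

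Members that varied together over the 12 libraries were described by Pearson's r of log2 CPM, which rises whenever genes share the treatment difference. The closest pairs were PUF4 with WHI4 (r = 0.955), PUF3 with WHI4 (0.946) and PUF3 with PUF4 (0.930). VTS1 and PUF2 ran opposite to each other (r = -0.88). Among 5930 genes with a mean of at least 20 counts, those most like VTS1 were the uncharacterised YBL081W (0.988), the tyrosine phosphatase gene PTP3 (0.976), GIS4 (0.974), SDS23 (0.972) and POL12, a subunit of DNA polymerase alpha (0.969). YBL081W had 72.3 ± 6.82 CPM in treated NTT1, 29.8 ± 5.11 in untreated NTT1, 61.3 ± 3.54 in treated wild type and 32.2 ± 7.94 in untreated wild type (SD, n = 3).

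The other members had their own nearest genes. WHI4 was closest to BOI2 (r = 0.987), a polarity gene, and NPL3 (0.983), an mRNA export factor. PUF2 was closest to ZNF1 (0.971), a zinc cluster regulator, and YFL051C (0.964), and PUF4 to IXR1 (0.975) and the decapping activator PAT1 (0.975). SSD1 was closest to YIP5 (0.979) and AFR1 (0.978), JSN1 to HER1 (0.962) and SDS24 (0.957), and PUF3 to UBP7 (0.960) and SEC31 (0.952). WHI3 was closest to the kinase SCH9 (0.932) and SPC97 (0.913). The steady genes had weaker likenesses, MPT5 with PFA3 (0.896) and PAU2 (0.875) and PUB1 with EPT1 (0.876) and EKI1 (0.846). These r values rest on 12 libraries of 4 groups and carry no test.

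Genes of the machinery through which Vts1 and the PUF proteins act were read from short lists. Of all genes, edgeR called 4.47% for ATP in NTT1 and 12.7% in wild type, and DESeq2 9.6% and 18.2%. Counts in lists this short say nothing about the machinery as a set. Of 9 CCR4-NOT deadenylase genes, 0 were called for ATP in NTT1 by edgeR (2 at an unadjusted p under 0.05) and 0 by DESeq2. CAF40 had the smallest p there (log2 fold change 0.15, adjusted p = 0.163). In wild type 1 fell, CAF130 (-0.24, adjusted p = 0.0459). Of PAN2, PAN3 and PAB1, 0 were called in either strain by edgeR or DESeq2 (2 in NTT1 and 1 in wild type at an unadjusted p under 0.05), with PAN2 at -0.15 (adjusted p = 0.154) in NTT1 and -0.13 (adjusted p = 0.145) in wild type. Of 15 tested decapping and 5′ decay genes, 0 were called in NTT1 by edgeR (3 at an unadjusted p under 0.05, 1 by DESeq2), where PAT1 had the smallest p (0.85, adjusted p = 0.112). In wild type 1 of them fell, EDC1 (-0.33, adjusted p = 0.0330), while 5 had an unadjusted p under 0.05 and DESeq2 called 4. The wild-type calls of CAF130 and EDC1 each held in 1 of 6 fits that left out a wild-type library, that without untreated replicate 3. The median log2 fold changes of CCR4-NOT genes were 0.04 in NTT1 and -0.0037 in wild type, and those of decay genes -0.02 in NTT1 and 0.02 in wild type.

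Other RNA-binding genes gave a few calls. Of the other PUF-repeat genes, PUF6 and NOP9, both acting in ribosome assembly, 0 were called in NTT1 by edgeR (1 at an unadjusted p under 0.05, 1 by DESeq2), with PUF6 at 0.66 (adjusted p = 0.103). PUF6 rose in wild type (0.86, adjusted p = 0.0304), with 188, 198 and 211 CPM with ATP and 83.3, 82.3 and 164 CPM without, where replicate 3 was again the high untreated library. Of 24 further mRNA-binding genes, 3 rose in NTT1: NPL3 (1.01, adjusted p = 0.00838), SLF1 (0.32, adjusted p = 0.0241) and PBP2 (0.30, adjusted p = 0.0467). In wild type HRP1 fell (-0.33, adjusted p = 0.0424). DESeq2 called 5 of the 24 in NTT1 and 5 in wild type, where edgeR called 4.47% and 12.7% of all genes and DESeq2 9.6% and 18.2%. The median of these 24 was 0.01 in NTT1 and 0.08 in wild type. NPL3 had 210, 234 and 189 CPM in treated NTT1 cells, against 127, 86.4 and 100 CPM in untreated NTT1 cells. The call of NPL3 held in every fit that left out 1 library. Of the 6 fits that left out an NTT1 library, 1 called SLF1 and 0 called PBP2. The wild-type calls of PUF6 and HRP1 each held in 1 of 6 fits that left out a wild-type library, that without untreated replicate 3.

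Of 24 mRNAs described as bound or controlled by one of the 10 proteins, 2 rose in NTT1 and 0 fell, while in wild type 6 rose and 2 fell, against 4.47% of all genes called in NTT1 and 12.7% in wild type. DESeq2 called 7 in NTT1 and 9 in wild type, where it called 9.6% and 18.2% of all genes. The list's median log2 fold change was 0.0049 in NTT1 and 0.15 in wild type. TOS6, a cell wall gene, rose in NTT1 (log2 0.91, adjusted p = 0.00406) and in wild type (log2 0.69, adjusted p = 0.0129). Its values were 218, 251 and 200 CPM in treated NTT1 cells and 126, 107 and 124 CPM in untreated ones, without overlap. The G1 cyclin gene CLN2 also rose in both, by 0.53 (adjusted p = 0.0395) in NTT1 and 0.60 (adjusted p = 0.0187) in wild type. CLN2 had 251, 257 and 251 CPM in treated NTT1 cells and 159, 171 and 195 CPM in untreated ones. Its NTT1 call held in 1 of 6 fits that left out an NTT1 library, and its wild-type call in 2 of 6 that left out a wild-type library. For TOS6 these counts were 6 of 6 and 4 of 6.

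In wild type TEC1, a transcription factor of filamentous growth, fell by 1.12 on the log2 scale (adjusted p = 0.0131), with 62.2, 74.7 and 71.3 CPM in treated cells and 168, 164 and 121 CPM in untreated cells. HO rose by 0.67 (adjusted p = 0.0380), with 105, 91.9 and 109 CPM in treated wild type and 56.0, 48.2 and 87.8 CPM in untreated wild type. YIR016W, a well-described Vts1 target, was the other gene that fell there (-0.91, adjusted p = 0.0416), and its value in NTT1 was -0.76 (adjusted p = 0.116). It had 46.3, 59.8 and 46.2 CPM in treated wild type and 121, 110 and 54.4 CPM in untreated wild type, with overlap. The wild-type call of YIR016W held in 1 of 12 fits that left out a library, that of HO in 3 and that of TEC1 in 9. Of the 6 fits that left out a wild-type library, TEC1 was called in 3. YIR016W and HO were each called in 1 of these 6, that without untreated replicate 3. The Whi3 target CLN3 had a log2 fold change of 0.85 (adjusted p = 0.0962) in NTT1 and 0.31 (adjusted p = 0.476) in wild type. The Puf3 target COX17 had -0.32 (adjusted p = 0.103) in NTT1 and 0.13 (adjusted p = 0.437) in wild type, so neither passed.

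The network of the kinase Cbk1, which phosphorylates Ssd1, was read from a list of 6 genes. MOB2, the activator of Cbk1, rose in NTT1 (0.59, adjusted p = 0.00249) and in wild type (0.27, adjusted p = 0.0319), and SOG2 fell in wild type (-0.31, adjusted p = 0.0277). DESeq2 likewise called 1 of the 6 in NTT1 and 2 in wild type. Of all genes, edgeR called 4.47% in NTT1 and 12.7% in wild type, and DESeq2 9.6% and 18.2%. The wild-type calls of MOB2 and SOG2 each held in 1 of 6 fits that left out a wild-type library. MOB2 had 65.8, 63.7 and 65.2 CPM in treated NTT1 cells and 42.8, 39.9 and 46.7 CPM in untreated ones, without overlap. The median log2 fold change of the network was 0.11 in NTT1 and -0.16 in wild type. Between strains without ATP, 0 of the 6 were called by edgeR, and 5 had an unadjusted p under 0.05, as did 9.7% of all genes. For the strain difference in the ATP effect, 0 were called and 4 had an unadjusted p under 0.05, as did 5.93% of all genes.

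The calls over all gene lists read here, including a short list whose genes are not described, were less firm in wild type. Of the 16 list genes called there, 1 was still called when only wild-type libraries were fitted and 0 without untreated replicate 1 or without treated replicate 1. Leaving out untreated replicate 2 kept 3 of them, treated replicate 2 kept 4 and treated replicate 3 kept 1. All 16 were called without untreated replicate 3, and all 16 with DESeq2. Of the 7 called in NTT1, all 7 were called when only NTT1 libraries were fitted, and 3 to 6 when an NTT1 library was left out. Between strains, 0 of the 87 list genes tested were called by edgeR or DESeq2 with ATP (4 at an unadjusted p under 0.05), and 0 without ATP (12 at an unadjusted p under 0.05). For the strain difference of the ATP effect the count was likewise 0 with both tools (10 at an unadjusted p under 0.05).

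Genes that hold a binding motif after the stop codon were then summarised for ATP, as log2 fold changes within 5775 protein-coding genes. The 419 genes with the Puf4 motif had a median of 0.08 in NTT1 and 0.11 in wild type, against medians of all coding genes that were below 0.01 in size in both. In NTT1, 15 of them rose and 1 fell. In wild type, 48 rose and 20 fell. Of all 6157 genes tested, 183 rose and 92 fell in NTT1, and 334 rose and 450 fell in wild type. In NTT1 3.82% of them were called, against 4.57% of all coding genes, and in wild type 16.2%, against 13.2%. The 382 genes with the Mpt5 motif had medians of 0.05 in NTT1 and 0.04 in wild type.

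Medians for the motifs of Puf3 and Whi3 showed no such offset. The 832 genes with the Puf3 motif had medians of 0.00011 in NTT1 and 0.02 in wild type, and the 1540 genes with the Whi3 motif had 0.0016 in NTT1 and 0.0053 in wild type. In wild type 15.3% of the Whi3 genes were called (93 higher, 143 lower) and 11.7% of the Puf3 genes (55 higher, 42 lower), against 13.2% of all coding genes. In NTT1 the shares were 5.06% and 3.00%, against 4.57%. Windows of 100 and 300 bases, added after the data were seen, gave Puf4 medians of 0.12 and 0.07 in NTT1 and 0.15 and 0.10 in wild type. The quartiles of the Puf4 genes, -0.04 to 0.24 in NTT1 and -0.03 to 0.32 in wild type, overlapped widely with those of all coding genes, -0.13 to 0.12 in NTT1 and -0.15 to 0.14 in wild type.

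**Figure D4:**
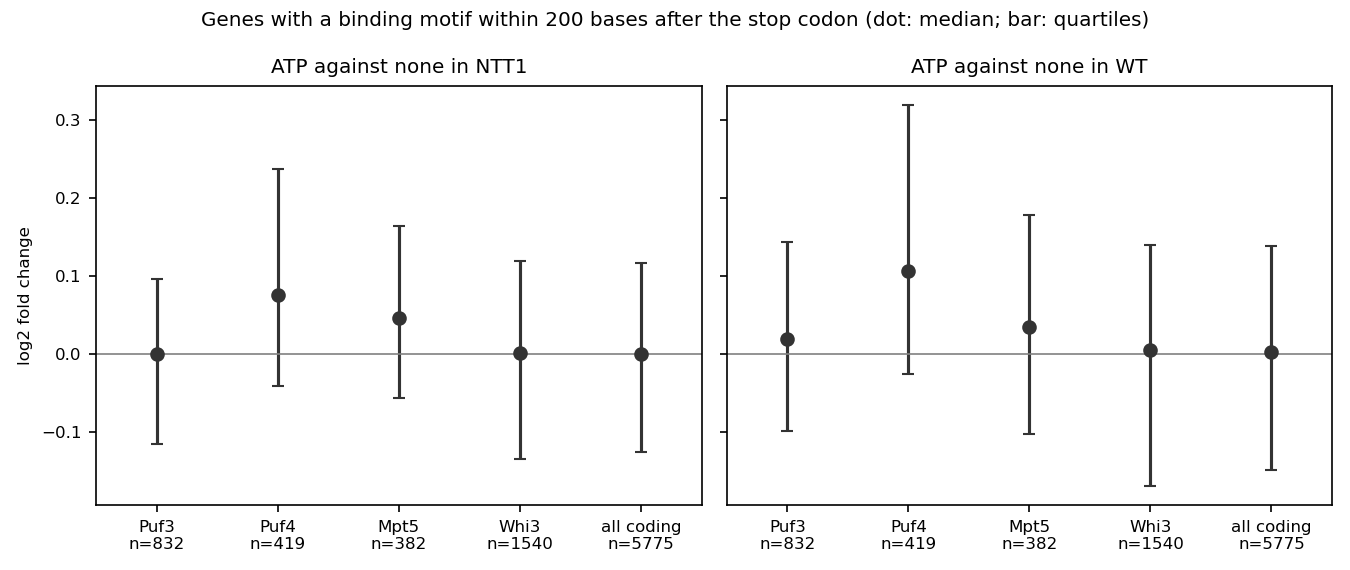
Median (dot) and quartiles (bar) of the log2 fold change with ATP (vertical axis) for genes holding a motif within 200 bases after the stop codon and for all coding genes, in NTT1 (left) and wild type (right). The Puf4 median is the highest in each panel, at 0.08 and 0.11, and its bar overlaps that of all coding genes.

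The 250 bases before the coding start were searched on both strands for 3 motifs known from stress and ribosome assembly genes: the STRE AGGGG, held by 18.8% of all genes, the PAC motif GATGAG, held by 17.0%, and the RRPE motif AAAATTTT, held by 8.65%. Of the members, 3 held one. All 3 are shown. JSN1 and PUF2 both hold an STRE, and their log2 fold changes with ATP in NTT1, neither past the threshold, were of opposite sign (0.53 for JSN1 and -0.35 for PUF2). In wild type both values were negative, -0.13 for JSN1, not past the threshold, and -0.84 for PUF2, past it.
VTS1, PAC motif, chrXV:1011007-1011024, gene on the plus strand: attggcGATGAGatatct
PUF2, STRE read on the opposite strand, chrXVI:653826-653842, gene on the minus strand: aaaccaCCCCTcgaaag
JSN1, STRE, chrX:598454-598470, gene on the minus strand: ggacaaAGGGGggcgtt
Capitals mark the motif, and each stretch is written 5′ to 3′ on the gene strand. Genes with an STRE had a median log2 fold change with ATP of -0.08 in NTT1 and -0.08 in wild type. Genes with PAC had 0.07 in NTT1 and 0.10 in wild type, and genes with RRPE 0.11 in NTT1 and 0.13 in wild type.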

How the data were processed

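RNA was sequenced from 12 yeast cultures in 4 groups of 3. The authors deposited raw counts per gene, whole numbers with different totals per library. HISAT2 2.0.5, featureCounts 1.5.0, DESeq2 1.20.0 and build R64 are named per the submitters' processing notes, without their roles. Strand use is not given in the sources used here. Identifiers were matched to RefSeq names of R64, with low lines read as hyphens, for 6023 features. The 1104 others held 0.282% of counts. In RefSeq, 0 of the 10 members overlap another gene. Overlap with unmatched features was not checked.

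Counts were tested in R 4.3.3 with edgeR 4.0.16 (limma 3.58.1): filterByExpr by group, leaving 6157 genes with 99.99% of counts, TMM, 1 mean per group over 12 libraries, the quasi-likelihood F-test and Benjamini-Hochberg adjustment over all genes, at 0.05. An exact test of 3 against 3 cannot go below p = 0.1, so single genes were not tested that way. SEs were derived from the F statistic and are approximate. Intervals use them with 8 residual degrees of freedom. Fitted fold changes use a prior count of 0.125 and log2 CPM a prior count of 2. DESeq2 1.42.0, RLE and upper-quartile factors, no filter, a replicate block, fits of only the groups compared, and each library left out were tried. The scripts were tested on simulated data. The members and gene lists were chosen with earlier results of these data known. Besides the members, the genes named are the 5 most like VTS1 and the 2 most like each other member by Pearson's r, and in each list those past the threshold (the 4 with the smallest p where more passed), or that with the smallest p where none passed. YIR016W, CLN3, COX17 and the printed sequences were chosen after values were seen. Sequences were read from the R64 genome of RefSeq. The genes of 1 list are not reported here one by one, and enter only the counts over all lists.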

Additional observations from a re-analysis of the deposited data

How the results depend on the processing

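Counts of members called depended on how the spread was estimated. For ATP in NTT1 (1 of 9), DESeq2 called 3, only NTT1 libraries 5, and fits leaving out 1 library 0 to 5, with 5 without untreated wild-type replicate 3, 2 without treated wild-type replicate 3, and 0 without untreated NTT1 replicate 2 or treated NTT1 replicate 1. For ATP in wild type (2 of 10), DESeq2 called 4, only wild-type libraries 0, and leaving out 1 library 2 to 4. For NTT1 against wild type without ATP (0 of 9) leaving out 1 library gave 0 to 3, the 3 without untreated wild-type replicate 3, and with ATP and for the strain difference in the ATP effect 0 in each. RLE and upper-quartile factors, no filter and the replicate block left these counts at 1, 2, 0, 0 and 0. Same-numbered libraries of different groups had correlations of -0.44 to 0.31, with 5 of 18 over 0.1, and differently numbered ones of -0.40 to 0.56. These values, taken as deviations from means of 3 libraries, do not settle whether the numbers pair the libraries. With the replicate block, 250 genes were called for ATP in NTT1 and 671 in wild type, against 275 and 784 without it. All genes called ranged from 69 to 1030 in NTT1 and 89 to 2086 in wild type when 1 library was left out, and fits of 1 strain alone called 950 in NTT1 and 19 in wild type. DESeq2 called 591 in NTT1 and 1120 in wild type. The strain comparison without ATP ranged from 2 to 602 genes, that with ATP from 1 to 6 and the strain difference in the ATP effect from 0 to 106 when 1 library was left out. The cause was not tested. Values near 0 changed sign, none of them called. For ATP in wild type without untreated replicate 2 these were JSN1 (0.149), WHI3 (-0.0018) and PUB1 (-0.017), the other ends of their ranges without 1 library being -0.32, 0.11 and 0.058. For NTT1 against wild type with ATP they were JSN1 with upper-quartile factors (0.00041), with the replicate block (0.0021) and without 1 library (-0.10 to 0.077, including 0.014, 0.019 and 0.029), and PUB1 without 1 library (-0.051 to 0.00044). Without ATP they were MPT5 (-0.027 to 0.088, including -0.015) and PUB1 (-0.0097 to 0.058), each without 1 library. For the strain difference in the ATP effect they were PUF4 without 1 library (-0.045 to 0.38), MPT5 with upper-quartile factors (-0.011) and without 1 library (-0.045 to 0.069, including -0.042, -0.019 and -0.0029), and SSD1 without 1 library (-0.0038 to 0.24). Upper-quartile factors moved the split of calls for ATP in NTT1 to 150 higher and 150 lower, against 183 and 92.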
